A study of Mus musculus with 32 samples.

Results

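This account follows knockdown cells from day 7 to day 11 of fat cell differentiation, the days over which added insulin was withdrawn. The cells were 3T3-L1, a mouse preadipocyte line, carrying a short hairpin RNA (shRNA) against Zbtb9, which encodes a zinc finger and BTB domain protein. By the rule used here, the 8 knockdown libraries of these days were chosen out of 32 in the series: 2 libraries of shRNA 1 and 2 of shRNA 2 at each day. The 8 libraries of scramble hairpin cells at the same days (4 per day) served for comparison. All groups had been treated alike. Confluent cells received 1 µM dexamethasone, 0.5 mM isobutylmethylxanthine and 167 nM insulin from day 0, insulin alone at 167 nM from day 3, and medium with no hormone from day 7. The labels call the cells of day 7 premature and those of day 11 mature adipocytes. Replicates are numbered as biological replicates, without saying whether they were separate infections of the line. P-values therefore measure the spread between these libraries, which may in part be technical. Days of culture and the loss of insulin changed together, so their effects cannot be told apart.

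Insulin acts in fat cells through its receptor, the insulin receptor substrates and the kinase AKT. It brings the glucose transporter SLC2A4 (GLUT4) to the cell surface, promotes fatty acid synthesis, restrains lipolysis and keeps FOXO transcription factors out of the nucleus. The adipocyte programme itself is held by the transcription factors PPARG and C/EBP alpha, which switch on the genes of lipid storage. Values were deposited as log2 and are drawn towards each gene's mean where reads are few. A difference of 1 is a doubling, and values of weakly expressed genes can misstate the size of a change. A gene is said to be called, or to have risen or fallen, at an adjusted p under 0.05 in limma. Where 4 values are given for a day, they are those of shRNA 1 replicates 1 and 2 and then shRNA 2 replicates 1 and 2.

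Reads in genes, rebuilt from the deposited values, numbered 23171541 to 27158080 per knockdown library at day 7 and 22839508 to 25511855 at day 11. Control libraries held 22280363 to 27179452 and 26486057 to 31073727 reads. The 2 libraries of shRNA 1 at day 11 differed more from each other (chi-square per degree of freedom 11.02) than any other pair of replicates in the series (2.92 to 8.88). Zbtb9 itself (GRCm38, chr17:26973167-27008376, plus strand) was covered by few reads. Its log2 values in knockdown cells were 3.19, 3.33, 3.29 and 3.14 at day 7 and 3.28, 3.66, 3.00 and 3.11 at day 11, against control means of 3.59 ± 0.13 and 3.55 ± 0.13 (SD, n = 4). In normalized reads this was 7.16 ± 2.03 and 8.46 ± 7.65 in knockdown cells (SD, n = 4). Control cells had 16.8 ± 4.15 and 15.5 ± 4.02 (SD, n = 4). At day 11 the knockdown libraries held 8.17, 19.3, 2.13 and 4.25 reads. That of shRNA 1 replicate 2 (19.3) lay above the control mean of the day, so lower Zbtb9 was not seen in it. The remaining knockdown libraries of day 11 lay below the lowest control library (12.1). The groups of days overlapped in knockdown cells (difference 0.03, two-sided exact permutation test p = 0.943, the smallest possible being 0.029). Of the 3482 exon bases of Zbtb9, 84.4% are shared with the predicted gene Gm50253 on the same strand, so these counts are uncertain. The adipocyte markers Fabp4, Cidec, Pparg, Cebpa, Plin1, Adipoq and Cfd were abundant, with Cebpa the lowest of them at day 11 (2661 ± 394 normalized reads, SD, n = 4), while Lep (leptin) did not exceed 5.80 reads in any of the 8 libraries.

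Of 13309 genes tested in knockdown cells, 7247 were called between the days: 3627 were higher at day 11 (27.3% of those tested) and 3620 lower (27.2%). These percentages are the background for counts of list members that rose or fell in knockdown cells. Scaled to equal totals, 4172 genes were higher and 3208 lower. By hairpin, 2987 genes were higher and 3253 lower with shRNA 1, and 2796 and 2851 with shRNA 2. These are the background for counts of list members by hairpin. The median change over all genes was 0.01. Changes by 1 or more on the log2 scale were called for 747 genes, 239 upward and 508 downward. In control cells 3703 of 13284 genes were higher (27.9%) and 3357 lower (25.3%), of which 548 by 1 or more. Over the 13209 genes tested in both arms, the changes of knockdown and control cells were correlated across genes (Pearson r 0.85, Spearman rho 0.76, a description, since genes are not independent). Both arms were called for 5076 genes, 4914 of them in the same direction and 162 in opposite directions.

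Genes of the fat cell programme fell in the main, from a level that was high at day 7. On the list of adipocyte identity genes, 30 members were tested in knockdown cells, of which 22 fell and 5 rose, with a median of -0.72. Fabp4 encodes the fatty acid carrier of fat cells. Its log2 values of 15.64, 15.79, 15.14 and 15.49 at day 7 became 13.94, 13.82, 13.85 and 13.71 at day 11. The days did not overlap (difference -1.69, SE 0.09, adjusted p = 4.86e-08), and the difference in control cells was -1.68. Acsl1, which activates long-chain fatty acids, went from 15.54, 15.53, 14.74 and 15.07 to 13.27, 12.86, 13.12 and 13.03 (difference -2.15, adjusted p = 5.31e-05). Its day 11 values in knockdown cells were close to the control mean of day 7, 13.00 ± 0.07 (SD, n = 4). Cidec, a protein of large lipid droplets, fell by 2.00 and the fatty acid carrier Fabp5 fell by 1.91. The regulators fell less far than these named genes: Cebpa by 1.29 and Pparg by 0.60 (adjusted p = 0.000126 and 1.22e-07). Cebpa still fell further than the list median. Pparg values of 13.04, 13.07, 13.06 and 13.15 at day 7 were followed by 12.41, 12.35, 12.57 and 12.60. In bulk RNA, fewer fat cells and less of a transcript per fat cell cannot be told apart.

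Some fat cell genes went against that direction. Adrb3, the beta-3 adrenergic receptor that starts lipolysis, had values of 5.98, 5.04, 4.51 and 4.87 at day 7 and 8.25, 7.59, 7.59 and 7.78 at day 11. All day 11 libraries lay above all day 7 libraries (difference 2.70, SE 0.24, adjusted p = 7.29e-06). In normalized reads Adrb3 went from 50.1 ± 31.7 to 434 ± 117 (SD, n = 4). Cfd (adipsin) rose by 0.88 and Aqp7, the glycerol channel of fat cells, by 0.75. Pck1, which makes glycerol phosphate in fat cells, rose by 0.75 from a low level, with a change of 0.39 that was not called in shRNA 1 alone (adjusted p = 0.0936). Adiponectin (Adipoq) was called at a rise of 0.66 (adjusted p = 0.0474), but its days overlapped. Its values were 12.94, 12.80, 12.24 and 12.34 at day 7 and 13.25, 12.90, 13.56 and 13.26 at day 11. The rise was 0.21 with shRNA 1 and 1.12 with shRNA 2, a difference that was itself called (adjusted p = 0.0274), and the pooled call was lost with replicates as blocks (adjusted p = 0.112) and without any of 6 of the 8 libraries (0.0651 to 0.111). Plin1, the perilipin that coats the droplet, was called at -0.28 (adjusted p = 0.0463), with overlapping days, and its call too was lost with replicates as blocks (0.0614) and without any of 5 libraries (0.067 to 0.109).

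**Figure D1:**
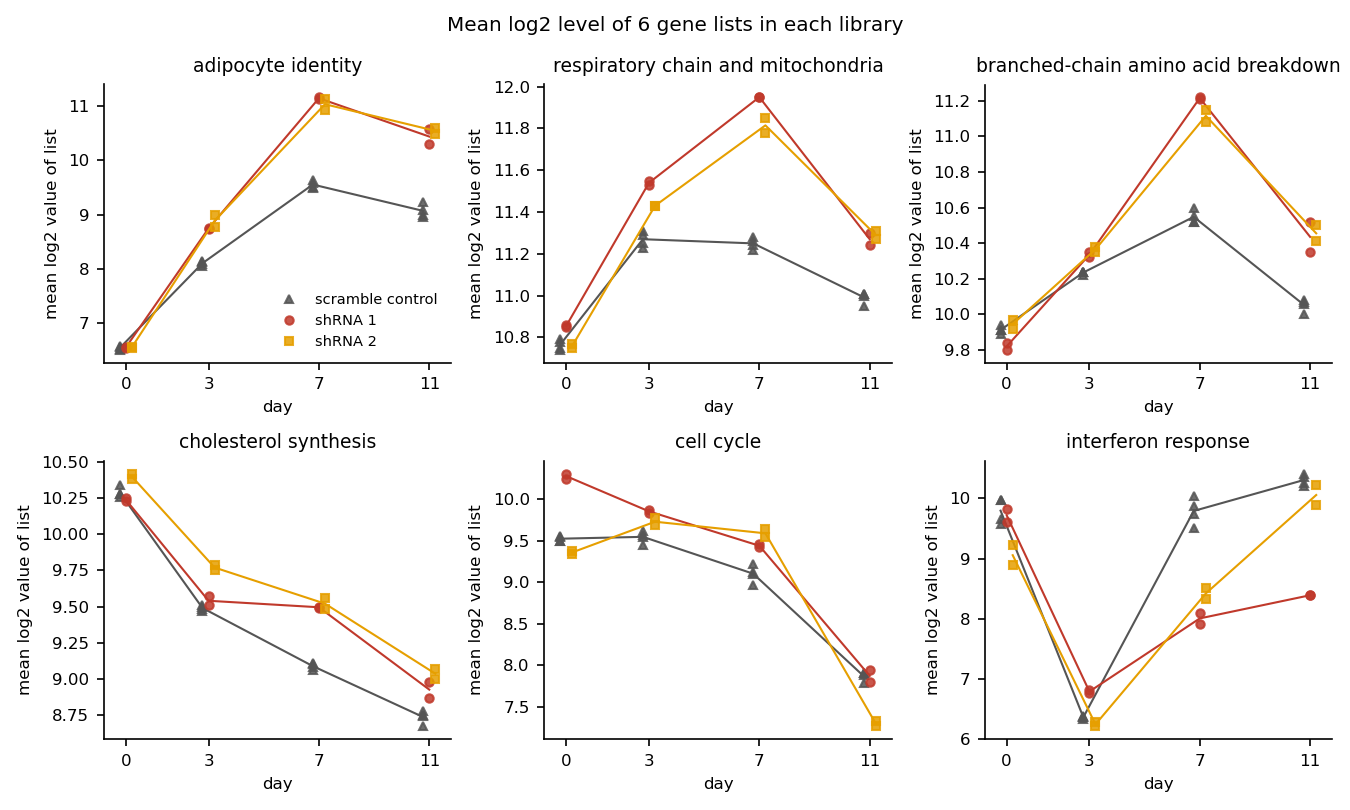
Mean log2 value of the members of 6 gene lists in each of the 32 libraries (points, by hairpin) against the day of differentiation, with lines through the means of each hairpin. From day 7 to day 11 the knockdown libraries fell on all the lists shown but interferon response, where shRNA 2 reached 10.22 and 9.89 at day 11 and shRNA 1 reached 8.39 in both libraries, each above its day 7 values.

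Fat cell genes remained well above their day 0 level at day 11. The mean level of the adipocyte list in knockdown cells was 6.55 to 6.57 at day 0, 10.93 to 11.16 at day 7 and 10.30 to 10.60 at day 11. In control cells it was 9.49 to 9.63 at day 7 and 8.96 to 9.23 at day 11, so that knockdown libraries at day 11 lay above every control library of either day. In control libraries 193 genes were called with a rise of 2 or more from day 0 to day 7. Of these, 143 fell in knockdown cells from day 7 to day 11 and 27 rose, with a median of -0.99. Their median gain in knockdown cells since day 0 was 3.58 at day 7 and 2.53 at day 11. The day 11 mean was above that of day 0 for 191 of them, and by 1 or more for 171. Chosen as risers on control libraries, these genes carry no test here.

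Lipid synthesis genes fell moderately. On the de novo lipogenesis list 17 of 26 members fell and 3 rose, with a median of -0.30, beside 17 falls and 4 rises in control cells. Dgat2, which adds the last fatty acid to triglyceride, went from 13.79, 13.66, 12.93 and 13.11 to 11.85, 11.66, 11.41 and 11.36 (difference -1.81, adjusted p = 2.23e-09). Lpin1, the phosphatidate phosphatase before it in the same route, fell by 1.33. Fatty acid synthase (Fasn) fell by 0.94 (SE 0.13, adjusted p = 0.000637), with values of 13.60, 13.47, 12.72 and 13.16 and then 12.66, 12.26, 12.20 and 12.06. The stearoyl-CoA desaturase Scd1 fell by 0.70. Srebf1, the insulin-responsive regulator of these enzymes, fell by 0.29 in knockdown cells, against 0.64 in control cells. The 3 members called higher were the NADPH producers Pgd (0.27) and Me1 (0.15) and the lipogenic cofactor Mid1ip1 (0.20). Their days overlapped, and without any of 6 libraries the calls of Me1 (adjusted p = 0.0555 to 0.107) and Mid1ip1 (0.0562 to 0.133) were lost.

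The lipolysis list moved both ways: 10 of 24 members fell and 7 rose. Adrb3 rose as given above. Npr1, the receptor for natriuretic peptides, fell by 1.36 in knockdown cells and had a control change of -0.27. Adipose triglyceride lipase (Pnpla2) fell by 1.36 and hormone-sensitive lipase (Lipe) by 0.70. The triglyceride hydrolase Ces1d rose by 1.72, and Angptl4, a secreted inhibitor of lipoprotein lipase, rose by 1.14. Lipoprotein lipase (Lpl), which frees fatty acids from circulating lipoproteins, differed between the arms. Its knockdown values were 16.27, 16.31, 15.54 and 15.76 at day 7 and 16.27, 16.03, 15.90 and 15.79 at day 11 (difference 0.03, adjusted p = 0.793). Control means went from 14.38 to 15.40 over the same days, and the day changes differed by -1.0 (adjusted p = 5e-07).

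Among 24 tested adipokines and other secreted factors, 9 rose and 9 fell. Angiotensinogen (Agt) fell by 2.06, resistin (Retn) fell by 1.39 and Nampt, an enzyme of NAD synthesis that is also secreted, fell by 0.86. Agt fell further with shRNA 1 (-2.57) than with shRNA 2 (-1.55, adjusted p of the difference 0.0189). The growth factor Igf1 rose from 10.20, 10.17, 10.36 and 10.36 to 11.64, 11.31, 12.10 and 11.88 (difference 1.46, adjusted p = 2.66e-07), and the apolipoprotein gene Apoc1 rose by 1.42.

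The insulin signalling list had no common direction, with 10 of 33 members higher, 13 lower and a median of 0.00. Slc2a4 (GLUT4) went from 11.01, 10.97, 10.82 and 11.12 to 9.66, 9.24, 9.56 and 9.38, without overlap (difference -1.52, SE 0.09, adjusted p = 9.9e-08). Tbc1d4, the AKT substrate that releases GLUT4 vesicles, fell by 1.43, and Pik3r1, the regulatory subunit of phosphoinositide 3-kinase, fell by 0.99. The insulin receptor (Insr), Irs1 and the kinases Akt1 and Akt2 were not called, at 0.00, 0.06, 0.00 and -0.11, and Irs2 fell by 0.54. Slc2a1 (GLUT1), the transporter that does not need insulin, rose instead, from 13.86, 13.87, 13.70 and 13.67 to 15.16, 15.49, 14.61 and 14.85 (difference 1.26, adjusted p = 5.01e-06). In control cells the rise of Slc2a1 was 0.46, and the difference of the changes was 0.80 (adjusted p = 0.011). Trib3, a pseudokinase that binds AKT, rose by 0.91 and the kinase Gsk3b by 0.49. Among genes of glucose use 10 of 27 rose and 11 fell, with 7 falling in shRNA 2 alone. Pyruvate carboxylase (Pcx) fell by 1.40, and the sugar phosphate enzymes Gpi1 and Pgm1 rose by 0.68 and 0.41.

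Genes known as FOXO targets were divided as well: 14 of 34 rose and 15 fell, with a median of 0.02. Pdk4, the kinase that switches off pyruvate dehydrogenase, fell from 12.03, 11.98, 11.84 and 11.86 to 10.17, 10.32, 10.12 and 10.17 (difference -1.73, SE 0.05, adjusted p = 2e-12). The fasting regulator Klf15 fell by 1.11. Gadd45a, a growth arrest gene, rose from 9.99, 9.93, 9.49 and 9.66 to 12.03, 12.19, 11.92 and 11.87 (difference 2.24, adjusted p = 1.07e-12), and Sirt1, a deacetylase, rose by 0.72. In control cells 6 members rose and 20 fell, with a median of -0.30. The change differed between the arms for 12 of 34 members, all towards higher values in knockdown cells, where the background over 13439 genes was 7.85% higher and 11.1% lower. Foxo3 itself was among them at 0.20 in knockdown and -0.52 in control cells (adjusted p = 3.43e-08), as were the cell cycle inhibitor Cdkn1a, the thioredoxin inhibitor Txnip and the pro-apoptotic Bcl2l11. These 4 were picked from the 12 after their values were seen. The FOXO element GTAAACA was found, on either strand, in the RefSeq promoters of 5 of the 28 members in that table (15.6% of their promoters, against 3.65% of all promoters of the same length), which is a count of letters and not of bound sites.

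Mitochondrial genes fell nearly as a body. Of 42 tested members of the respiratory chain list, 39 fell and none rose, with a median of -0.67. In control cells 36 fell and 2 rose, with a median of -0.27. The change was lower in knockdown than in control cells for 37 of 42 members, against 11.1% of all genes. With shRNA 2 alone against control it was lower for 24, where 1124 of 13376 genes were lower. Cytochrome c (Cycs), the electron carrier between complexes III and IV, went from 12.25, 12.32, 11.90 and 11.91 to 10.93, 10.94, 10.79 and 10.84 (difference -1.22, SE 0.06, adjusted p = 2.69e-10). The control change of Cycs was -0.19, and the difference between the arms -1.03 (adjusted p = 3.66e-08). Idh3a, a subunit of the citric acid cycle's isocitrate dehydrogenase, fell by 1.15 and Pdha1, of pyruvate dehydrogenase, by 0.90. The mean level of the list was 11.78 to 11.95 in the knockdown libraries at day 7 and 11.24 to 11.31 at day 11. Control libraries had 11.22 to 11.28 at day 7, and 10.95 to 11.01 at day 11. The range of knockdown libraries at day 11 overlapped that of control libraries at day 7.

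The routes that feed the respiratory chain fell too. Of 28 fatty acid oxidation genes 23 fell and 2 rose, with a median of -0.60. The medium-chain acyl-CoA dehydrogenase Acadm fell by 1.31. The 2 that rose were Acot2, a mitochondrial thioesterase (0.71), and Cpt1a, which admits fatty acids to mitochondria (0.57). Of 24 genes of branched-chain amino acid breakdown 22 fell, with a median of -0.71. Bcat2, the mitochondrial aminotransferase of that pathway, went from 13.61, 13.52, 13.17 and 13.33 to 11.21, 10.93, 11.20 and 11.11, a difference of -2.29 (adjusted p = 2.57e-08). Its cytosolic counterpart Bcat1 was the member that rose, by 0.82. The change was lower in knockdown than in control cells for 13 of 28 oxidation genes and 11 of 24 branched-chain genes, and higher for none. Of all genes, 11.1% were lower and 7.85% higher. With shRNA 2 alone the change was lower for 8 oxidation and 6 branched-chain genes, where 1124 of 13376 genes were lower. Among 8 tested genes tied to thermogenic fat, 3 fell (Kcnk3 by 1.55, Gk by 0.64 and Letmd1 by 0.23) and 2 rose (Adrb3, and Tmem26 by 0.38). The call of Tmem26 was lost without any of 6 libraries (adjusted p = 0.054 to 0.136).

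**Figure D2:**
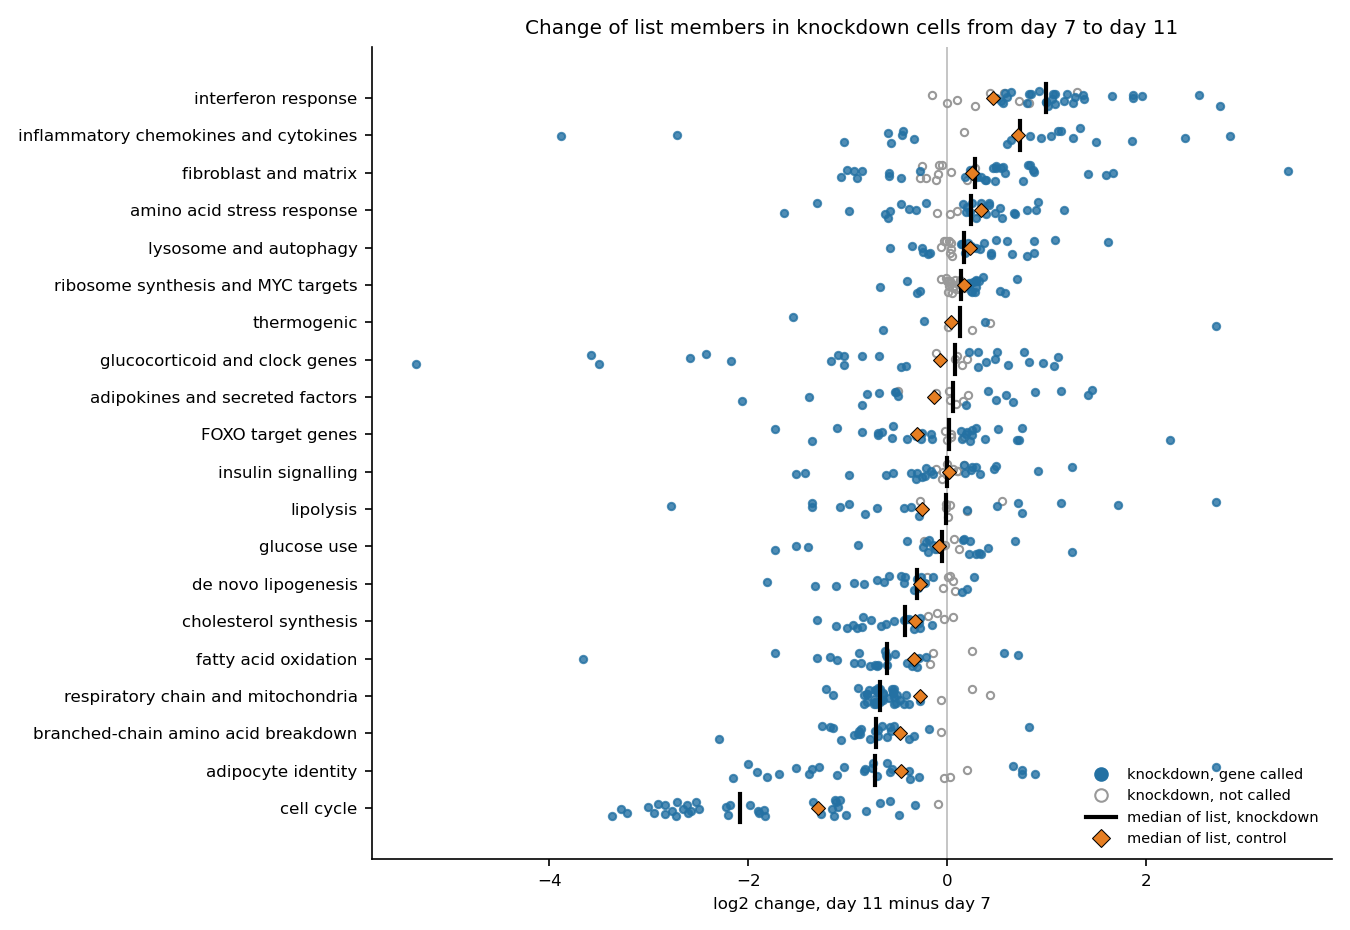
Log2 change from day 7 to day 11 in knockdown cells for every tested member of 20 gene lists (points, filled where called), with the median of the list in knockdown (bar) and control cells (diamond). Cell cycle genes had the lowest median (-2.08) and interferon response genes the highest (0.99).

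Cholesterol synthesis genes fell in step: 20 of 24 members fell and none rose, with a median of -0.42. Cyp51, the lanosterol demethylase, went from 10.45, 10.48, 10.23 and 10.38 to 9.15, 9.03, 9.08 and 9.03 (difference -1.31, SE 0.06, adjusted p = 4.07e-10). Insig1, which retains the sterol sensor in the endoplasmic reticulum, fell by 1.12 and Acat2 by 1.01. Hmgcs1, the synthase at the head of the pathway, went from 11.64, 11.65, 11.56 and 11.80 to 10.66, 10.59, 11.04 and 10.92, a fall by 0.86 where the control change was -0.21 (adjusted p of the difference 9.21e-06). The change differed from control for 7 of 24 members, all lower in knockdown cells, against 11.1% of all genes. With shRNA 2 alone it was lower for 4, where 1124 of 13376 genes were lower.

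Cell cycle genes made the most uniform movement, 39 of 40 members falling, with a median of -2.08. In control cells 39 of 40 fell as well, with a median of -1.30. Mki67, the proliferation antigen Ki-67, stood at 10.56, 10.50, 10.58 and 10.95 at day 7 and at 7.87, 7.92, 6.69 and 6.98 at day 11 (difference -3.28, SE 0.29, adjusted p = 0.000147). Both days were far apart, and shRNA 2 went lower than shRNA 1. Its mean in knockdown cells at day 0 had been 10.79. Cyclin A2 (Ccna2), which drives S phase, fell by 3.37 and the spindle protein Nusap1 by 3.22. The mean level of the list in knockdown libraries was 9.42 to 9.64 at day 7, above the control libraries at 8.97 to 9.22. At day 11 it was 7.80 and 7.94 with shRNA 1, 7.26 and 7.33 with shRNA 2 and 7.79 to 7.90 in control cells. With shRNA 1 alone against control the change was lower for 13 of 40 members, where 1463 of 13374 genes were lower. With both hairpins the change was lower than in control cells for 27 of 40 members, against 11.1% of all genes. For Mki67 that difference was -0.99 (adjusted p = 0.0427), with replicates as blocks it was not called (0.127), and it was lost without any of 12 of the 16 libraries (0.0515 to 0.0862). The only member not called in knockdown cells was Ccnd1 (cyclin D1), at -0.09.

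The promoter of Mki67 is shown because it holds the cell cycle homology region at which mitotic genes are known to be repressed. From RefSeq (GRCm38.p6, chr7:135716330-135716629, minus strand, 250 bases before to 50 after the start), it is written from 5′ to 3′ with TTTGAA, searched on both strands, in capitals. It holds 2 such matches, beginning 116 and 98 bases before the start.
Mki67: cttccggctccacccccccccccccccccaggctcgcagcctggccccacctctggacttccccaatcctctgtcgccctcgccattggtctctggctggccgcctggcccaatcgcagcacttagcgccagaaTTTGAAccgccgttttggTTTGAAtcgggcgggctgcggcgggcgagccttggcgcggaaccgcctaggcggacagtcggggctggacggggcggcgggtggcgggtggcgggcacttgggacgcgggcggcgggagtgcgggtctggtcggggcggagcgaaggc
Of the 40 members 32 were in the promoter table, and 14 of them held these letters (42.4% of their promoters, against 17.9% of all 32851). The letters TTCCCGCC of an E2F element were in 2 of the 32. No motif searched contains another.

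Interferon response genes rose, and did so unevenly between the hairpins. Of 38 tested members 29 rose and none fell, with a median of 0.99, and in control cells 28 rose and 2 fell, with a median of 0.46. By hairpin, 21 rose and 2 fell with shRNA 1 (median 0.38), and 38 rose with shRNA 2 (median 1.57). Of all 13309 genes, 2987 rose with shRNA 1 and 2796 with shRNA 2. With replicates as blocks 18 members were called rather than 29, and without the hairpin as a block 7. Ifit3, an antiviral protein of the tetratricopeptide family (chr19:34583531-34588731), stood at 7.54, 7.10, 8.66 and 8.54 at day 7 and at 9.13, 8.95, 12.66 and 12.03 at day 11. All libraries of day 11 were above those of day 7, and shRNA 2 gained more than shRNA 1. The pooled difference was 2.74 (SE 0.47, adjusted p = 0.00441), made up of 1.73 with shRNA 1 and 3.75 with shRNA 2 (adjusted p of the difference 0.0088). The difference of Ifit3 between hairpins was not called without shRNA 2 day 7 replicate 2 (0.054) or shRNA 1 day 11 replicate 2 (0.162), nor with voom on the rebuilt reads (0.208). Rsad2 (viperin) stood at 5.68, 5.16, 5.76 and 5.77 and then at 6.48, 6.39, 8.86 and 8.49 (1.02 and 2.91 by hairpin, adjusted p of the difference 0.000683). Across the list the change was larger with shRNA 2 for 33 of 38 members and smaller for none, where the background was 1.28% higher and 0.601% lower of 13309 genes. That count was 10 without trend and robust settings, where Oas2, Oas3 and Ifit3 were not called (adjusted p = 0.0605, 0.0772 and 0.0534), and 20 without shRNA 2 day 7 replicate 2, with none smaller in either. The list level with shRNA 1 was 8.09 and 7.92 at day 7 and 8.39 in both libraries at day 11. With shRNA 2 it went from 8.51 and 8.33 to 10.22 and 9.89, near the control libraries of day 11 (10.21 to 10.41). Control libraries had 9.50 to 10.04 at day 7, above every knockdown library of that day. The shRNA 1 libraries of day 11 stayed below every control library of either day. Parp14 and Cmpk2 were the 2 members whose rise differed from that of control cells when the hairpins were pooled, by 0.61 and 0.94. Of all genes, 7.85% were called higher in that test.

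The promoters of Ifit3, Rsad2 and Oas3 are shown because the change of these members differed between hairpins. Each holds the core letters of an interferon response element, TTTCNNTTT on either strand, in capitals. They come from RefSeq (GRCm38.p6), written 5′ to 3′, from chr19:34583279-34583578 on the plus strand (Ifit3, with 2 matches), chr12:26456403-26456702 on the minus strand (Rsad2, with 2) and chr5:120777610-120777909 on the minus strand (Oas3, with 1).
Ifit3: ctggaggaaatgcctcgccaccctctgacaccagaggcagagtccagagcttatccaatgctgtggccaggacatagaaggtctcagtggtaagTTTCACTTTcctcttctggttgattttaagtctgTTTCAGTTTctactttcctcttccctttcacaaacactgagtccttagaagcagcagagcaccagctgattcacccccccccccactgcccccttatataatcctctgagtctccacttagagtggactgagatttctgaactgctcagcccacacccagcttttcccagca
Rsad2: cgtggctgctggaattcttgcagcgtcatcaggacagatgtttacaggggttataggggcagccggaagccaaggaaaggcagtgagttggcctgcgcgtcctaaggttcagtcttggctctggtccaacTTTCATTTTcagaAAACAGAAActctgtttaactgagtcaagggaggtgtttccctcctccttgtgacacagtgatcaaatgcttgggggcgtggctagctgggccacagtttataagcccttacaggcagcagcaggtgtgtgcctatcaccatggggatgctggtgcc
Oas3: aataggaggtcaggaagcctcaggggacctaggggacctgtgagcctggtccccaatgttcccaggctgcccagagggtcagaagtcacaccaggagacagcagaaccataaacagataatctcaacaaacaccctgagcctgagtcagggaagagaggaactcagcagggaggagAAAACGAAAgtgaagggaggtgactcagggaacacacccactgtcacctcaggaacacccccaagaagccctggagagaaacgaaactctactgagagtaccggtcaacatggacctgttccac
In Ifit3 the matches begin 156 and 122 bases before the start, in Rsad2 120 and 107, and in Oas3 74. The letters were present in 22 of the 31 members found in the table (65.7% of their promoters), against 10.6% of all promoters. A match describes the sequence and does not show binding.

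Of 42 fibroblast and matrix genes 23 rose and 9 fell, with 15 and 12 for shRNA 1 and 22 and 8 for shRNA 2. Over all 13309 genes, 2987 rose and 3253 fell with shRNA 1, and 2796 rose and 2851 fell with shRNA 2. Thbs1 (thrombospondin 1), a secreted activator of TGF-beta, went from 9.62, 9.57, 9.47 and 9.32 to 12.92, 12.80, 13.03 and 12.94, with no overlap (difference 3.43, SE 0.07, adjusted p = 1.28e-13). Fibrillin 1 (Fbn1) rose by 1.60 and the main collagen gene Col1a1 by 0.56 (adjusted p = 1.08e-06). Acta2, smooth muscle actin, was called at 1.67, with 0.83 for shRNA 1 and 2.51 for shRNA 2 (adjusted p of the difference 0.0014), and lost its call with replicates as blocks (0.054). The basement membrane collagens Col4a1 and Col4a2 fell by 1.01 and 1.07, and the gelatinase Mmp2 by 0.94. Dlk1, which marks preadipocytes, was not called, at 0.12 (adjusted p = 0.326), with overlapping days. It was called in the fits without shRNA 1 day 7 replicate 1 (0.22) or shRNA 1 day 11 replicate 2 (0.20), and with shRNA 2 alone (0.28, adjusted p = 0.00248).

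Of 22 inflammatory genes 13 rose and 8 fell. The neutrophil chemokine Cxcl5 went from 9.71, 9.77, 9.36 and 9.16 to 12.29, 11.91, 12.87 and 12.29 (difference 2.84, adjusted p = 0.000239), Cxcl1 rose by 2.39 and Ccl2 by 1.86. Control cells showed rises of 2.81, 2.31 and 1.60 for these genes. The B cell chemokine Cxcl13 moved the other way, from 8.67, 8.48, 8.79 and 8.63 to 4.56, 4.45, 4.96 and 5.07 (difference -3.88, adjusted p = 3.5e-12), as did the interleukin 1 antagonist Il1rn (-2.71) and lipocalin 2 (Lcn2, -1.04). Macrophage markers moved beside these genes: the summed normalized reads of the 6 markers in the table were 97 to 154 at day 7 and 313 to 648 at day 11. Of the 3 tested, Cd68 rose by 1.62 (78.1 to 124 reads, then 243 to 575) and Lyz2 by 0.86 (4.64 to 12.7 reads, then 20.4 to 47.8, adjusted p = 0.000122), and Csf1r was not called, at 0.28. The leukocyte markers Ptprc and Fcer1g did not exceed 3 reads in any library, with Fcer1g at 0. Itgam, which was not tested, had 0 reads at day 7 and 0 to 9.08 at day 11. Summed reads of 5 epithelial markers went from 254 to 990 to 43 to 187. The 3 tested, the keratins Krt8, Krt18 and Krt19, fell, while Epcam did not exceed 2.04 reads and Cdh1 had 0 to 1.05 reads at day 7 and 1.06 to 4.08 at day 11. The part of other cell types in these results was not tested.

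**Figure D3:**
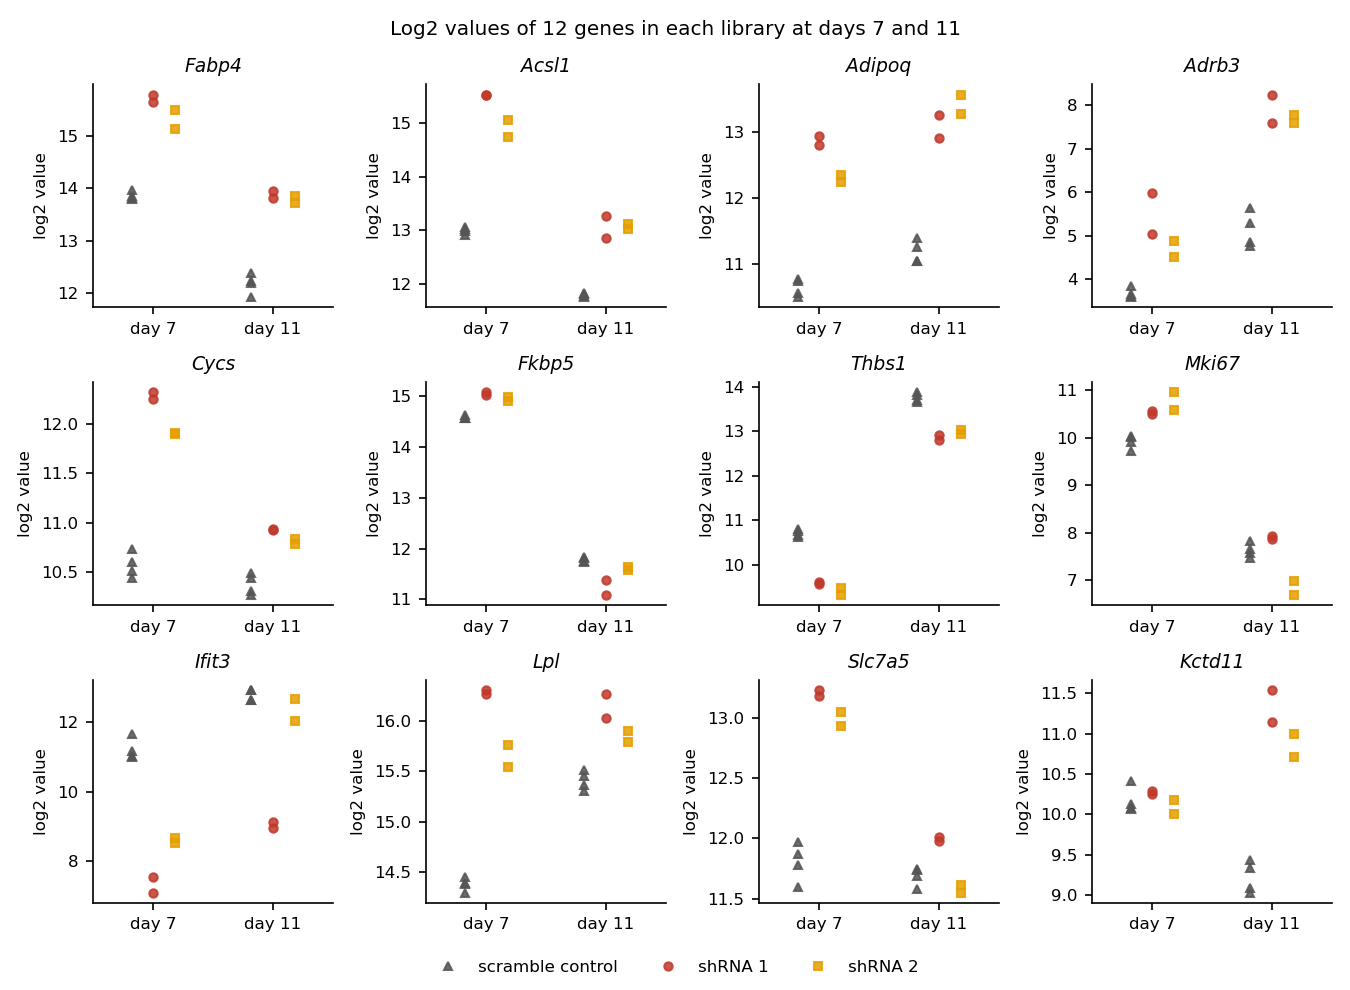
Log2 values of 12 genes in each control and knockdown library at days 7 and 11 (points, by hairpin). Fabp4 and Acsl1 in knockdown cells at day 11 lay near the control values of day 7, and Ifit3 with shRNA 1 stayed below 9.2 where shRNA 2 passed 12.

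On the list of glucocorticoid and clock genes 12 of 31 members rose and 14 fell, with a median of 0.08. Dexamethasone had been left out from day 3 by the protocol. Fam107a, which glucocorticoids are known to induce, went from 11.25, 11.11, 11.42 and 11.15 to 5.95, 5.60, 6.02 and 5.98, the largest fall among named genes (difference -5.34, SE 0.09, adjusted p = 1.56e-14). In normalized reads this was 2638 ± 271 and then 42.8 ± 8.93 (SD, n = 4). Its fall was larger in control cells (-6.63), by a difference of 1.28. Fkbp5, a co-chaperone of the glucocorticoid receptor, went from 15.03, 15.08, 14.91 and 14.99 to 11.38, 11.09, 11.64 and 11.59 (difference -3.58, adjusted p = 3.93e-09). Here knockdown cells fell further than control cells (-2.81), by -0.77 (adjusted p = 9.75e-05). The sulfotransferase gene Sult1a1 fell by 3.5. Members of the same list that belong to the clock moved both ways. The clock output factor Dbp rose by 1.11 and the repressors Cry1 and Per3 rose by 1.07 and 0.96, while Per1 and Clock, picked after their values were seen, had changes of -1.1 and -0.41. The change differed from control for 17 of 31 members, higher in 12 and lower in 5, against 7.85% and 11.1% of all genes.

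The amino acid stress response, a programme led by the transcription factor ATF4, rose on 20 of 34 members and fell on 10. Trib3 went from 11.72, 11.67, 11.45 and 11.42 to 12.65, 12.78, 12.10 and 12.36 (difference 0.91, adjusted p = 3.33e-08), the cystine transporter Slc7a11 rose by 1.17 and the stress hormone Gdf15 by 0.89. Several other members fell far. Slc7a5, the carrier of large neutral amino acids, went from 13.23, 13.18, 12.93 and 13.05 to 12.01, 11.98, 11.55 and 11.61 (difference -1.31, SE 0.05, adjusted p = 7.29e-11). Control cells had a change of -0.11 for Slc7a5, so that the arms differed by -1.20 (adjusted p = 1.53e-08). Ddit4, an inhibitor of mTORC1, fell by 1.64 and Mthfd2, of mitochondrial folate metabolism, by 0.99. The change was lower than in control cells for 14 of 34 members and higher for 1, against 11.1% and 7.85% of all genes.

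Trib3 and Slc7a11 are shown as members that rose and hold the letters TGATGNAA of an ATF4 element (either strand, in capitals) in the RefSeq promoter (GRCm38.p6, 5′ to 3′). They lie at chr2:152344011-152344310 on the minus strand and chr3:50443564-50443863 on the minus strand.
Trib3: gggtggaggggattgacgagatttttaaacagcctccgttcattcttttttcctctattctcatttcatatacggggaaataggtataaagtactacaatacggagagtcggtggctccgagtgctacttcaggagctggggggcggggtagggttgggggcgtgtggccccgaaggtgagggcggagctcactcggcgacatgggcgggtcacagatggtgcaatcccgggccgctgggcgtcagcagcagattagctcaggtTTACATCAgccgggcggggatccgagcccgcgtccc
Slc7a11: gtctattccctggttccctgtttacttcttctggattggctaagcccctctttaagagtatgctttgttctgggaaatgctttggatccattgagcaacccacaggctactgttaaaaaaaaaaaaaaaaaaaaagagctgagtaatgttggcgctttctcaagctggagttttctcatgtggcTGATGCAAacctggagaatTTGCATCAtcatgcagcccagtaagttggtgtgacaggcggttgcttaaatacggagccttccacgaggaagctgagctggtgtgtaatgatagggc
These letters were held by 11 of the 30 members with a promoter there (31.4% of promoters, against 3.97% of all). The match in Trib3 lies after the start, and those in Slc7a11 begin 66 and 47 bases before it. The letters were not found in the promoters of Gdf15, which rose, or of Ddit4 and Mthfd2, which fell. This is a statement on this window alone.

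Among 36 genes of ribosome synthesis and MYC targets 16 rose and 4 fell, with a median of 0.14, and 11 were called without the hairpin as a block. By hairpin 17 rose and 3 fell with shRNA 1, and 9 rose and 4 fell with shRNA 2. Of all 13309 genes, 2987 rose with shRNA 1 and 2796 with shRNA 2, so the rises with shRNA 2 were near the background. Myc rose from 11.09, 11.04, 10.92 and 10.97 to 11.81, 11.98, 11.46 and 11.58 (difference 0.70, adjusted p = 2.47e-07). Nme1, a nucleoside diphosphate kinase, fell by 0.67, with a control change of -0.02. Of 32 lysosome and autophagy genes 18 rose and 6 fell. The autophagy receptor Sqstm1 (p62) rose from 14.02, 14.04, 13.99 and 13.90 to 15.04, 15.13, 15.07 and 15.05 (difference 1.08, adjusted p = 2.18e-10). Tfeb, a regulator of lysosomal genes, fell by 0.57.

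Beyond the lists, the largest rise among genes with a mean of at least 50 (2 to the power of the value) in the higher day was that of Itga11, the collagen-binding integrin alpha 11. It went from 5.39, 5.20, 5.36 and 5.34 to 8.85, 8.70, 8.90 and 8.65 (difference 3.45, SE 0.11, adjusted p = 3.83e-12), with a control change of 3.47. Kif26b, an atypical kinesin, rose by 3.15, the transcription factor Runx1 by 2.88, the protease inhibitor Spink5 by 2.68 and the matrix metalloproteinase Mmp11 by 2.47. Runx1 and Mmp11 rose by 1.11 and 0.99 more than in control cells (adjusted p = 1e-06 and 3.43e-08), and Kif26b by 0.93 less, at a difference of -0.93. The largest falls after Fam107a were those of Cyb561, an ascorbate-dependent reductase (-4.49), the ribonuclease Ear2 (-4.47) and the serine protease inhibitor Serpina3k (-4.26). Cyb561 went from 11.24, 11.26, 10.78 and 11.18 to 6.96, 6.38, 6.59 and 6.56. The microtubule protein gene Map7d2 fell by 3.69 and Krt15, a keratin, by 3.73.

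A direct test of the difference between the arms called 2541 of 13439 genes, 1055 higher and 1486 lower in knockdown cells. The split was 1188 and 1338 after scaling to equal totals and 1233 and 1288 after scaling to equal medians. Of 2522 such genes tested in each arm, 566 fell in both arms and further in knockdown cells, 137 fell in both and further in control cells, and 266 and 100 rose in both with the larger rise in knockdown and in control cells. Another 806 were called in knockdown cells alone, 456 in control cells alone, 162 in opposite directions and 29 in neither arm. Kctd11, an adaptor of ubiquitin ligases, rose in knockdown cells and fell in control cells. Its knockdown values were 10.29, 10.25, 10.18 and 10.01 at day 7 and 11.15, 11.54, 10.71 and 11.00 at day 11, while the control mean went from 10.17 to 9.22 (difference of changes 1.87, adjusted p = 4.99e-06). Depp1, a FOXO-regulated gene of autophagy, parted in the same way (0.85 and -1.02, difference 1.87). The lipid droplet protein gene Hilpda had 0.50 and -1.19 (difference 1.69), its rise in knockdown cells losing its call with replicates as blocks (0.0564) and without shRNA 1 day 7 replicate 1 (0.0595) or 2 (0.0672) or shRNA 2 day 11 replicate 2 (0.0538). The histone gene H2ac6 rose by 1.71 in knockdown cells, against a control change of -0.08 (difference 1.80), and Aldh1a7 fell by 2.39 against a control change of -4.01 (difference 1.62).

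**Figure D4:**
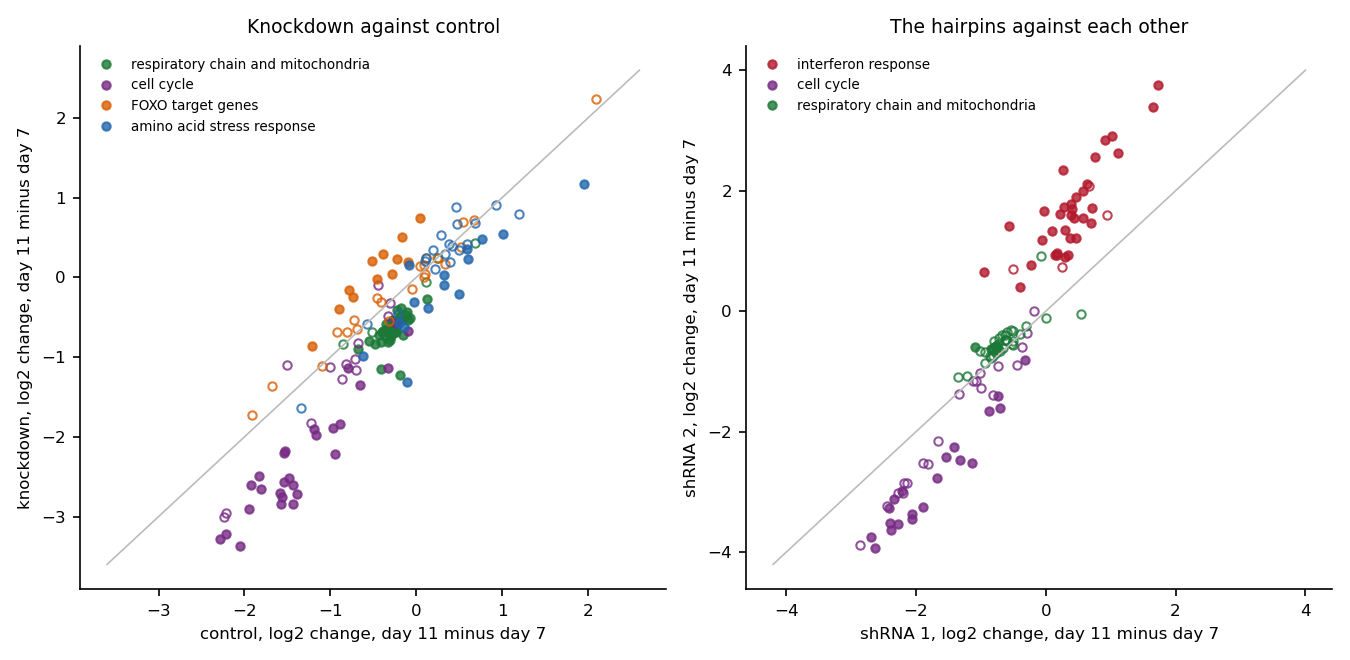
Log2 changes from day 7 to day 11 for list members: knockdown against control (left) and shRNA 2 against shRNA 1 (right), 1 point per gene, filled where the test of the difference was called, with the line of equal change. Respiratory chain genes lie below the line on the left (37 of 42 called lower), FOXO targets lie above it where called, and interferon genes lie above it on the right (33 of 38 called, or 10 without trend and robust settings).

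On the deposited scale the most negative differences were those of B3gnt6, Krt15, Krt8, Krt19 and Sorbs2. B3gnt6, a glycosyltransferase gene, stood at 7.00, 7.89, 4.79 and 5.29 at day 7 and at 3.42, 3.19, 2.53 and 2.87 at day 11, with control means of 2.82 and 2.38 (difference -2.80, adjusted p = 0.000486). Its day 7 level was higher with shRNA 1 than with shRNA 2. Krt8, a keratin of simple epithelia, likewise stood at 7.95, 7.91, 4.77 and 5.69 and then at 5.53, 5.19, 3.38 and 3.01 (difference from control -1.85). For B3gnt6, Krt8, Krt19 and Sorbs2 the difference was not called when voom was run on the rebuilt reads (adjusted p = 0.106, 0.53, 0.339 and 0.367). The difference was then -0.96 for Krt8, -0.94 for Krt19 and -1.06 for Sorbs2, with -2.96 for B3gnt6. With log2 of the rebuilt reads plus 1, Krt8, Krt19 and Sorbs2 were not called either (0.256, 0.0965 and 0.156).  Krt15 was called in every alternative run, with a difference of -2.29.

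The change itself differed between hairpins for 250 of 13309 genes, 170 more positive and 80 more negative with shRNA 2. After scaling libraries to equal totals the split was 151 and 125, and after scaling to equal medians 156 and 119. The count was 639 with replicates as blocks. It was 837 without shRNA 1 day 11 replicate 1, 138 without shRNA 2 day 7 replicate 1, 126 without shRNA 2 day 11 replicate 1, 113 and 95 without shRNA 1 day 7 replicate 2 and 1, and 89 without shRNA 2 day 7 replicate 2. Oas2 and Oas3, which make the activator of RNase L, had the largest positive differences with Ifit3. Oas2 stood at 6.04, 5.79, 5.61 and 5.42 and then at 5.90, 6.45, 8.17 and 7.57, so that it gained 0.26 with shRNA 1 and 2.35 with shRNA 2 (difference 2.1, adjusted p = 0.00146). Oas3 had -0.56 and 1.42 (difference 1.98, adjusted p = 0.00326). The most negative differences were those of Cit, a kinase of cytokinesis (-1.64, not called without any of 4 libraries, adjusted p = 0.0608 to 0.0944), Klf5, a transcription factor of early adipogenesis (-1.55), and Knstrn, a kinetochore protein (-1.47). Klf5 stood at 9.14, 8.93, 10.05 and 9.92 and then at 9.29, 9.46, 8.63 and 8.93, so that the hairpins crossed and the pooled change was not called (adjusted p = 0.335). On the cell cycle list 20 of 40 members fell further with shRNA 2. This count was 5 without trend and robust settings, 9 without a filter, 7 without shRNA 2 day 7 replicate 2, 10 without either shRNA 1 library of day 7 and 13 without shRNA 2 day 7 replicate 1. For the respiratory chain 1 of 42 members differed, and for the fatty acid oxidation and branched-chain lists none did in limma. Between hairpins, 4360 of the 4376 genes called in each had the same direction, which was 69.9% of the calls of shRNA 1 and 77.2% of those of shRNA 2.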

How the data were processed

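RNA-seq of 32 libraries was used, with 8 knockdown and 8 control libraries of days 7 and 11 in the comparisons. The authors deposited 1 table of log2 values for 20560 genes, which behave as regularized log2 values of counts scaled for library size; per the submitters' processing notes, TopHat2 2.1.0, Bowtie2 2.2.6, SAMtools 1.3.1 and HTSeq 0.6.1 were used, and the genome build is not given in the sources used here. Genes whose 2 to the power of the value reached 10 in at least 4 libraries were tested with limma 3.58.1 (R 4.3.3, trended and robust), with the hairpin as a block and Benjamini-Hochberg adjustment over all genes tested. Read numbers were rebuilt by inverting the transform, which gave near-whole numbers (within 0.1) for 99.3% of values, against 20% by chance. Total reads of 22280363 to 31073727 per library limit what can be said of genes with few reads. Positions are those of GRCm38. On simulated data for the knockdown comparison (13318 genes), 96.5% of changed genes were recovered, with 3.02% false calls. For the difference from control (13424 genes) these were 92.5% and 6.09%, and for that between hairpins (13332 genes) 77.5% and 4.32%, with 44.6% recovered at a log2 size of 0.5. In each simulation 200 well covered genes were changed, by 0.5 or more, with replicate noise drawn independently for each gene. The real called changes in knockdown cells had a median size of 0.38, so these rates need not hold for the real calls.

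Named genes were a panel named whatever its values, the 10 largest rises and falls without overlap, the 5 largest differences each way from control and the 3 each way between hairpins, all with a mean level of at least 50, and up to 3 rising and 3 falling members of each list. The members and lists were chosen with earlier results of these data known. In knockdown cells same-numbered libraries of both days deviated together (correlations 0.135 for shRNA 1 and 0.181 for shRNA 2). With 2 replicates per hairpin these are only 2 independent values, and the labels state no shared batch. In control cells 3 of 4 correlations were negative (-0.135 to 0.15). A pairing by replicate number entered only the alternative fits with replicates as blocks, and the main fits did not use it. Alternatives covered filters, scaling, voom and log2 values of the rebuilt reads plus 1, blocks, each hairpin alone and each library left out. Other days entered levels, the choice of the 193 genes that rose in control cells since day 0, and the fit of all 32 libraries. A few genes that the rule names are not reported here.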

Additional observations from a re-analysis of the deposited data

Results flagged for a closer look

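Named genes whose day change differed between knockdown and control cells in a direct test are given with the difference in log2. Changes were most negative in knockdown cells, relative to control, for B3gnt6 (-2.80), Krt15 (-2.29), Krt8 (-1.85), Krt19 (-1.63), Sorbs2 (-1.51), Ccna2 (-1.32), Slc7a5 (-1.20), Map7d2 (-1.14), Knstrn (-1.10), Npr1 (-1.09), Cycs (-1.03), Lpl (-1.0), Nusap1 (-1.0) and Mki67 (-0.99). They were next most negative for Acsl1 (-0.94), Kif26b (-0.93), Ear2 (-0.90), Cyb561 (-0.84), Fkbp5 (-0.77), Slc7a11 (-0.77), Idh3a (-0.73), Bcat2 (-0.73), Il1rn (-0.73), Cyp51 (-0.67), Hmgcs1 (-0.65), Nme1 (-0.65), Kcnk3 (-0.61) and Fasn (-0.53). Smaller negative differences were those of Dgat2 (-0.53), Insig1 (-0.52), Per3 (-0.50), Hibch (-0.47), Acat2 (-0.45), Gk (-0.44), Mthfd2 (-0.37), Fabp5 (-0.34), Me1 (-0.32), Bop1 (-0.29), Acadm (-0.25), Atp6v0d1 (-0.23), Pdha1 (-0.21) and Srm (-0.21). Changes were most positive in knockdown cells for Kctd11 (1.87), Depp1 (1.87), H2ac6 (1.80), Hilpda (1.69), Aldh1a7 (1.62), Fam107a (1.28), Adrb3 (1.25), Runx1 (1.11), Mmp11 (0.99) and Slc2a1 (0.80). Smaller positive differences were those of Apoc1 (0.76), Pck1 (0.71), Myc (0.45), Thbs1 (0.38), Fbn1 (0.38), Srebf1 (0.35), Nampt (0.25) and Sqstm1 (0.23). The difference of Pck1 was not called without any of 11 of the 16 libraries (adjusted p = 0.0575 to 0.102).

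Named genes whose day change differed between the hairpins are given as shRNA 2 minus shRNA 1. The change was more positive with shRNA 2 for Oas2 (2.1), Ifit3 (2.02), Oas3 (1.98), Rsad2 (1.90), B3gnt6 (1.80), Ifit3b (1.73), Acta2 (1.68), Il1rn (1.09), Agt (1.02), Dbp (0.97), Adipoq (0.91), Mmp2 (0.77), Fkbp5 (0.49) and Pik3r1 (0.42). It was more negative for Cit (-1.64), Klf5 (-1.55), Knstrn (-1.47), Mki67 (-1.30), Nusap1 (-1.07), Ddit4 (-0.91) and Cry1 (-0.66).

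Of 258 groups of 4 libraries examined, 9 had a library far from the others by Dixon's criterion, which flags about 5% of groups by chance, so these are no more than chance gives. At day 7 these were shRNA 1 replicate 1 for Mmp11 (highest, 10.66), shRNA 1 replicate 2 for Npr1 (highest, 7.08) and Rsad2 (lowest, 5.16), and shRNA 2 replicate 1 for Nusap1 (highest, 8.88) and Pgm1 (lowest, 12.70). At day 11 they were shRNA 1 replicate 2 for Fam107a (lowest, 5.60), Kcnk3 (lowest, 8.78) and Lcn2 (highest, 12.61), and shRNA 1 replicate 1 for Acadm (highest, 11.82).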

How the results depend on the processing

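The number of genes whose change differed between hairpins was the result that moved most. Against 250, it was 86 without a filter, 39 without trend and robust settings, 639 with replicates as a block, 829 in 1 fit of all 32 libraries (chosen after seeing the data) and 89 to 837 with 1 library left out. Interferon members called were 18 with the replicate block and 7 without the hairpin block, and ribosome and MYC members called were 11 without the hairpin block. Klf5 reversed to 0.34 in shRNA 1 alone (adjusted p = 0.0178), the fits of each hairpin alone also being chosen after seeing the data. The cause of these shifts was not tested. With the replicate block, 7110 genes were called in knockdown cells and 2155 for the difference from control, and calls were lost for Adipoq (0.112), Plin1 (0.0614), Hilpda (0.0564), Acta2 (0.054) and the Mki67 difference (0.127). Over all alternatives, the count in knockdown cells ran from 5518 (shRNA 2 alone) to 8297 and the difference from control from 2050 to 3543. Of the other values, for named genes and list medians, 3740 held, 116 were no longer called, 34 became called and 27 moved. Few reads limit Zbtb9 and Lep.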

Other observations

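Markers of other mesenchymal fates were measured beside the fat cell genes. Runx2, a transcription factor of bone formation, rose by 0.85 in knockdown cells (adjusted p = 6.86e-07 in limma), from 364 to 450 normalized reads at day 7 to 701 to 860 at day 11. Sox9, a transcription factor of cartilage, was called at 0.36 (adjusted p = 0.0164), from 1040 to 1550 reads to 1220 to 2360, with overlapping days. Later markers of these lineages, Bglap of bone and Col2a1 of cartilage, did not exceed 2.1 and 5.31 reads. Acan of cartilage had 2.92 to 10.5 reads at day 7 and 0 at day 11. Among preadipocyte and fibroblast markers Pdgfra and Col3a1 rose by 0.29 and 0.30, and Thy1 fell by 0.46.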
